A study of Mus musculus with 123 samples.

Results

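Glial transcripts in hand-picked sensory neurons of the dorsal root ganglion (DRG) were followed through 8 genes, Apoe, Fabp7, Ednrb, Cdh19, Sox10, S100b, Mbp and Pmp22, which are 8 of the 24134 genes in the deposited table. They were chosen by name as known transcripts of the cells that wrap sensory neurons, with earlier results of these data known. The mice were 2 months old and had the right sciatic nerve cut (sciatic nerve transection, SNT), and the DRG of the other side of the same mice served as the control side. At day 3 after SNT, cells came from L5 DRG of F1 mice from a CAST/Eij father and a C57BL/6 mother, and at day 7 from L3 to L5 DRG of C57BL/6 mice of both sexes. The authors describe the F1 mice as female, and the labels of the day-3 samples give no sex. Single somata were picked by hand after dissociation, and 106 kept cells comprised 18 control-side and 41 SNT-side cells at day 3 and 14 control-side and 33 SNT-side cells at day 7. A further 11 day-3 cells, 4 from the control side and 7 from the SNT side, stand in the deposited table but were removed by the authors as outliers, and 6 libraries hold pooled day-3 neurons, 3 for each side.

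Each sensory neuron of a ganglion is enclosed in a sheath of satellite glial cells, and its axon is accompanied by Schwann cells, some of which form myelin. Both kinds of glia depend on the transcription factor SOX10. Satellite glia are known for lipid carriers, potassium channels and gap junctions, and myelinating Schwann cells for the proteins of compact myelin. A picked soma can carry pieces of this sheath, so glial RNA is regularly seen in such libraries.

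Apoe (the lipid carrier apolipoprotein E), Fabp7 (a fatty-acid-binding protein) and Ednrb (the endothelin B receptor) were taken as satellite glial members. Mbp and Pmp22, 2 proteins of compact myelin, were taken as Schwann members. Sox10, Cdh19 (a cadherin of the Schwann lineage) and S100b (a calcium-binding protein that is also known from large sensory neurons) were counted as members of both kinds of glia. In the GRCm38 annotation, which is not the mm9 build named in the submitters' processing notes, all 8 are protein-coding genes, and no exon of theirs overlaps an exon of another gene. The genes lie on chromosome 7 (Apoe, 19696109 to 19699188, minus strand), 10 (Fabp7, 57784881 to 57788450, plus, and S100b, 76253853 to 76261159, plus), 14 (Ednrb, 103814625 to 103844402, minus), 1 (Cdh19, 110888326 to 110977584, minus), 15 (Sox10, 79154908 to 79165240, minus) and 11 (Pmp22, 63128982 to 63159547, plus).

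The 250 bases upstream of the RefSeq start are shown for 5 members. Of these, 3 (Apoe, Fabp7 and Ednrb) varied together from cell to cell in every group, while S100b and Pmp22 did so in 1 group and in none, as described below. Cdh19, Sox10 and Mbp varied with the first 3 as well. The set of windows had no entry for Cdh19 and Sox10, and none is shown for Mbp. The windows are from RefSeq on GRCm38.p6 and run 5′ to 3′ on the strand of the gene. They span chr7:19699189-19699438 for Apoe, chr10:57784673-57784922 for Fabp7, chr14:103843702-103843951 for Ednrb, chr10:76253586-76253835 for S100b and chr11:63128732-63128981 for Pmp22. The RefSeq starts of Apoe and Pmp22 match the gene ends given above, and those of Ednrb, Fabp7 and S100b differ from them. The Ednrb window therefore lies inside that span of Ednrb, and the Fabp7 window runs past the start of Fabp7. Capitals mark ACAAT and ACAAAG, short letter strings of the kind that SOX proteins bind, on either strand (reverse ATTGT and CTTTGT).
Apoe: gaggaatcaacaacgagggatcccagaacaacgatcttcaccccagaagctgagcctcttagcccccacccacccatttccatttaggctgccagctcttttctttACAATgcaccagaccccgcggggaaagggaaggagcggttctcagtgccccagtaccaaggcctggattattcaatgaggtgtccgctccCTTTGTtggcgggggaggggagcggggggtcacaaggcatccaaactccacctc
Fabp7: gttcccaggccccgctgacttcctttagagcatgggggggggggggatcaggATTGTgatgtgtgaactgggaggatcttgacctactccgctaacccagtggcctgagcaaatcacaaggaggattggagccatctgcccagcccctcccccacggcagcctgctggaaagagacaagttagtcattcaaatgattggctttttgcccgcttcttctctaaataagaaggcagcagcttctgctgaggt
Ednrb: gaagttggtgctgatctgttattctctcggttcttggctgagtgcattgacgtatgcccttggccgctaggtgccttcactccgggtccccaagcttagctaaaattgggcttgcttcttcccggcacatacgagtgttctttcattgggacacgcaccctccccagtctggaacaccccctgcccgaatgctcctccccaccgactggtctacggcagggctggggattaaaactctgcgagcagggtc
S100b: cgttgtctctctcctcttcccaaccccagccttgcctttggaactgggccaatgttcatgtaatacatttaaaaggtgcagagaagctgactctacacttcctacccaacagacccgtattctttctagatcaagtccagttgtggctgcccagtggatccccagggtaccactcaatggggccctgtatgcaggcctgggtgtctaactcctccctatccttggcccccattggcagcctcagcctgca
Pmp22: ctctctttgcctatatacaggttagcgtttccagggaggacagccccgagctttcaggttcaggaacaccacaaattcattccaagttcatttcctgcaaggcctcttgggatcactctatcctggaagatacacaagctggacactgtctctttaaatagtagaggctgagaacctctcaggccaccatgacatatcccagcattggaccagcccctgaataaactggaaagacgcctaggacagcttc
The Apoe window holds 1 ACAAT and 1 ACAAAG, the Fabp7 window holds 1 ACAAT, and the other 3 windows hold neither string. Of 32851 promoter windows of the same length, 27.7% hold ACAAT, 16.5% hold ACAAAG and 38.8% hold at least 1 of them, so a match is common and is given here as a description only. GC content was 57.2% for Apoe, 54.8% for Fabp7, 56.8% for Ednrb, 53.6% for S100b and 48.8% for Pmp22, against a median of 52.4% over all windows.

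Expression is given as CPM, the deposited expected count divided by the column total and multiplied by 1e6. CPM is not corrected for transcript length, so levels of different genes were not compared. Column totals of kept cells ranged from 277391 to 1368842 in control-side and from 611647 to 1849130 in SNT-side cells at day 3, from 510014 to 1018545 and from 261352 to 965292 at day 7, and from 563462 to 2003817 in the pools. Neuronal markers were present in the kept cells, since the summed CPM of 8 neuronal genes had a median between 10123 and 13378 in the 4 groups. The injury marker Atf3 reached at most 75.7 CPM in a control-side day-3 cell and 29 CPM in a control-side day-7 cell, and 30 of 41 SNT-side cells at day 3 and 12 of 33 at day 7 lay above these values. The strain, the sexes of the mice used, read length (50 against 75 bases) and sequencer differ between the days and cannot be told apart from time. The sides of the pools were read from the sample names, and the identifier line of the table pairs them the opposite way, which would turn every sign of the pooled comparison. With the names, Atf3 was at 12.7 CPM in control-side and 1549 CPM in SNT-side pools.

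The pooled libraries address whether glial RNA that comes along with many picked neurons differs between the sides 3 days after SNT. Apoe, Fabp7, Ednrb and Cdh19 fell on the SNT side, while S100b, Mbp and Pmp22 showed no change past both limits of the test. Sox10 missed the p limit and, at a log2 change of -0.997, narrowly also the size limit. The 3 libraries of a side are parts of 1 lysate, so p-values measure technical spread and not spread between mice. CPM is a share of all counts. The summed CPM of 8 neuronal genes was 8099 to 9409 in control-side and 14945 to 17229 in SNT-side pools. In such pools, fewer glial cells, less RNA per glial cell and more RNA from the neurons cannot be told apart. Values are CPM scaled with TMM factors, and a gene was called at a Benjamini-Hochberg (BH) adjusted p below 0.05 in edgeR's quasi-likelihood test together with a log2 change beyond 1.

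Among the satellite glial members, Apoe was at 8611, 11203 and 10513 CPM in the 3 control-side pools and at 3654, 4480 and 4155 CPM in the 3 SNT-side pools. The lowest control library was well above the highest SNT library, and the means were 10109 ± 1342 and 4096 ± 416 CPM (SD, n = 3 libraries). Apoe thus fell by 1.30 on the log2 scale (SE 0.11, BH-adjusted p = 7.22e-13, edgeR). Fabp7 was at 479, 462 and 504 CPM in control-side and at 115, 136 and 152 CPM in SNT-side pools. It had the largest decrease of the 8 genes and fell by 1.84 on the log2 scale (SE 0.15, BH-adjusted p = 5.91e-13, edgeR). Ednrb was at 427, 353 and 470 CPM in control-side and at 184, 243 and 177 CPM in SNT-side pools. Its sides did not overlap either, and it fell by 1.05 on the log2 scale (SE 0.15, BH-adjusted p = 8.08e-07, edgeR), close to the size limit. Leaving out SNT library 1, SNT library 3 or control library 3 brought the Ednrb change to -0.99, -0.96 and -0.96, just inside the limit.

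Among the members that both kinds of glia express, Cdh19 was at 88.2, 79.2 and 79.0 CPM in control-side and at 33.1, 24.9 and 22.4 CPM in SNT-side pools. It fell by 1.61 on the log2 scale (SE 0.25, BH-adjusted p = 3.15e-06, edgeR). Sox10 was at 24.6, 24.9 and 16.8 CPM in control-side and at 15.6, 11.98 and 6.39 CPM in SNT-side pools. The sides of Sox10 lay next to each other with wide spread within each, and its log2 difference of -0.997 (SE 0.42) did not pass the test (BH-adjusted p = 0.0818, edgeR). With library size alone as the scaling it did (log2 -1.15, adjusted p = 0.0400). S100b was at 338, 346 and 301 CPM in control-side and at 480, 517 and 529 CPM in SNT-side pools. All 3 SNT libraries lay above all 3 control libraries, with a log2 difference of 0.63 (SE 0.13, BH-adjusted p = 0.000374, edgeR) that stayed below the size limit.

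Of the Schwann members, Mbp was at 147, 179 and 188 CPM in control-side and at 220, 205 and 236 CPM in SNT-side pools, a log2 difference of 0.37 (SE 0.16, BH-adjusted p = 0.0879, edgeR). Pmp22 was at 1433, 1450 and 1759 CPM in control-side and at 1498, 1572 and 1520 CPM in SNT-side pools, and the log2 difference of -0.01 (SE 0.11, BH-adjusted p = 0.946, edgeR) changed its sign when SNT library 1 or control library 3 was left out. The SNT values of Pmp22 lay inside the range of the control values.

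In all, 8 of 8 members passed the filter on low counts, 4 were called lower and 0 higher. Of 13509 genes tested, 15.9% were called, 961 genes as lower and 1193 as higher on the SNT side. At an adjusted p below 0.05 without the size limit, 5 members passed, against 24.8% of all genes. The sides did not overlap for 7 of the 8 members, against 37.7% of all genes. The median log2 change of all genes was 0.02 with TMM factors and -0.14 with library size alone, and under the latter 978 genes were called higher and 1265 lower.

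**Figure D1:**
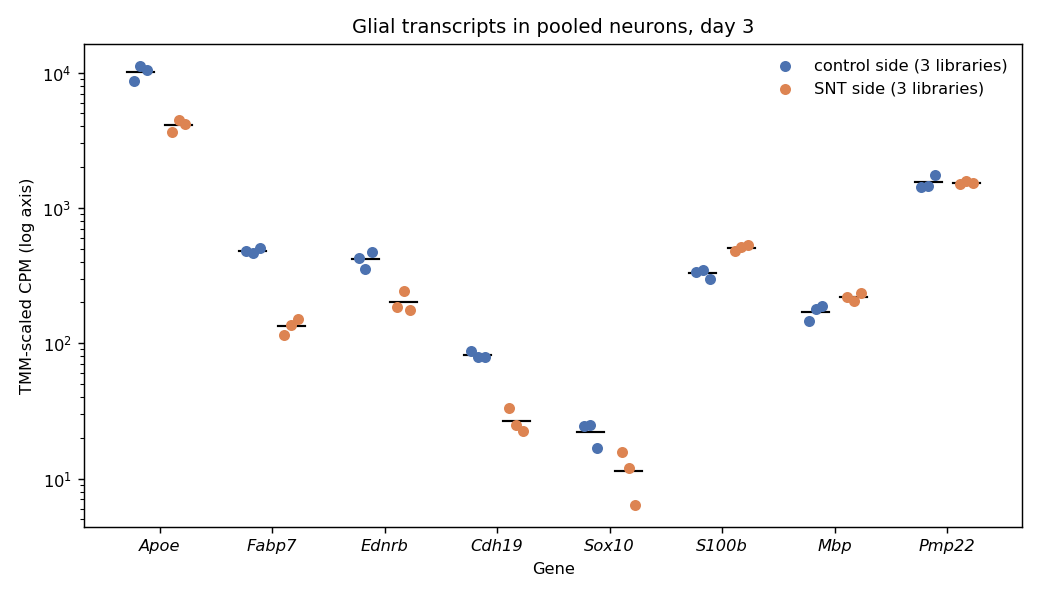
CPM of the 8 genes (log axis, TMM-scaled) in each of the 3 control-side and 3 SNT-side pooled libraries of day 3, with a black line at the mean of each side. Apoe, Fabp7, Ednrb and Cdh19 are lower in every SNT library, S100b lies higher in every SNT library, and the sides of Pmp22 overlap.

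The summed CPM of the 3 satellite glial members was 11007 ± 1318 in control-side and 4432 ± 455 in SNT-side pools (SD, n = 3), while the sum of the 2 Schwann members was 1718 ± 199 and 1750 ± 29.8. Apoe makes up most of the first sum, and the sum of Fabp7 and Ednrb alone was 898 ± 79.9 and 336 ± 40.8. Pmp22 makes up most of the second sum, at 1547 CPM in control-side and 1530 CPM in SNT-side pools. In single cells Pmp22 averaged 1241 CPM in kept day-3 cells and 1280 CPM in the removed cells, against 2859 and 57189 CPM for Apoe. The second sum thus gives mainly Pmp22 and does not show that Schwann RNA as a whole was unchanged. The log2 ratio of the satellite to the Schwann sum was 2.68 ± 0.18 in control-side and 1.34 ± 0.13 in SNT-side pools, a difference of -1.34. The 3 libraries of a side did not overlap with the other side.

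The longer lists of glial genes include the members. Of the 8 satellite glial genes listed, 5 were called lower and 1 higher, against 15.9% of all genes called either way, and 3 of the 5 are the members Apoe, Fabp7 and Ednrb. Of the other two, Kcnj10, the potassium channel of satellite glia, fell by 1.67 (SE 0.26) and Gja1, a gap junction protein, fell by 1.84 (SE 0.20) on the log2 scale, while Gfap, an intermediate filament of activated glia, had 0 counts in every control-side pool and 7, 0 and 20 counts in the SNT-side pools. Of the 13 Schwann myelin genes, 6 were called higher and 0 lower. Among the 6 were Prx, Ncmap, Drp2, Pllp and Gldn, of which Prx, Ncmap and Pllp were below 4 CPM in each control-side pool, Gldn had 0 counts there and 31, 19 and 36 counts on the SNT side, and Pllp lost its call in 7 alternatives. Of the 6 genes of both kinds of glia that were tested, 2 were called lower, Cdh19 among them. Gfap and Gldn passed the filter on low counts through the SNT side alone, so they could be called in no direction but higher. Mbp and Pmp22 were among the 7 Schwann myelin genes that did not pass the test.

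Markers of other cells also differed between the pools. The summed CPM of 10 macrophage genes was 0 to 4.53 in control-side and 9.99 to 15.4 in SNT-side pools, and that of 6 fibroblast genes 55.5 to 80.4 and 43.7 to 45.2. Of the 3 macrophage genes tested, 2 were called higher, against 15.9% of all genes called either way. They were Csf1r with 12, 4 and 7 and Cx3cr1 with 1, 5 and 12 counts on the SNT side against 0 in every control library. The macrophage genes not tested fell short of the filter on low counts. The endothelial and erythrocyte sums were at most 13.3 CPM, and 1 of 3 endothelial genes tested was called higher (Cldn5, 0 counts in every control library). Csf1r, Cx3cr1 and Cldn5 passed the filter through the SNT side alone, so they could be called in no direction but higher. Of 5 fibroblast genes tested, 1 was called lower (Col1a2, log2 -1.18). The sum of the 8 neuronal genes, in contrast, was 8099 to 9409 CPM in control-side and 14945 to 17229 CPM in SNT-side pools, with Tubb3 (neuronal tubulin) as the only one called. The neuron markers used below also moved, since Nefh (neurofilament heavy chain, of large myelinated neurons) rose by 1.19 on the log2 scale and P2rx3 (a receptor for ATP of small nonpeptidergic neurons) fell by 1.23. Their part in the changes of the 8 glial genes was not tested.

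In single cells the same question was asked cell by cell, with the cells of 1 side and day as 1 sample because the labels name no animal. No test between sides was therefore possible, and means are given with the SD over cells. At day 3 the side difference of the pools was not seen for Apoe, and Ednrb and Cdh19 had the opposite sign. Intervals on shares are binomial over cells, treat the cells of a side as independent and cover counting error only, not the spread between mice.

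At day 3, Apoe ranged from 20.2 to 10781 CPM in control-side cells (median 1165) and from 31.1 to 8738 CPM in SNT-side cells (median 2360). The 2 ranges nearly coincide, and the means were 3012 ± 3541 and 2791 ± 2433 CPM (SD, n = 18 and 41 cells), a log2 ratio of -0.11, while the ratio of the medians was 1.02. Fabp7 ranged from 0 to 528 CPM (median 46.4) in control-side and from 0.942 to 325 CPM (median 51.2) in SNT-side cells, with a log2 ratio of mean CPM of -0.39. Ednrb ranged from 0 to 382 CPM (median 37.3) and from 2.01 to 598 CPM (median 123), with a log2 ratio of 0.62. Ednrb was thus higher on the SNT side by mean and by median.

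Cdh19 differed most between the sides at day 3. It ranged from 0 to 79.0 CPM with a median of 2.60 in control-side cells and from 0 to 162 CPM with a median of 34.2 in SNT-side cells, and the means were 16.5 ± 24.3 and 44.3 ± 45.7 CPM, a log2 ratio of 1.37. At least 10 CPM of Cdh19 were found in 6 of 18 control-side cells (33.3%, exact 95% interval 13.3% to 59.0%) and in 27 of 41 SNT-side cells (65.9%, 49.4% to 79.9%). After thinning each cell to 261000 counts, 8 of 18 and 29 of 41 cells had at least 2 counts. Sox10 had medians of 1.14 and 10.1 CPM and a log2 ratio of 0.58.

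S100b, Mbp and Pmp22 were each lower on the SNT side at day 3 by mean CPM. S100b had a median of 32.7 CPM in control-side and 31.3 CPM in SNT-side cells, with highest cells of 1139 and 1168 CPM and a log2 ratio of -0.18. Mbp had medians of 89.3 and 68.7 CPM and a log2 ratio of -0.93, of which 1 control-side cell at 1239 CPM carried most, since the ratio was -0.16 without the highest cell of either side. Pmp22 had medians of 1274 and 1174 CPM and a log2 ratio of -0.35, and it was at 10 CPM or more in all 59 cells.

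Only Cdh19, 1 of 8 members, was past 2-fold between the sides at day 3, against 11.9% of the 9736 genes whose mean reached 10 CPM on 1 side or the other (5.82% higher and 6.07% lower with SNT). The summed CPM of the 8 members had a log2 ratio of -0.17. In Atf3-positive SNT-side cells alone, meaning the 30 cells above every control-side cell, the ratio of Cdh19 was 1.65, that of Ednrb 0.82 and that of Apoe 0.04. The other 11 SNT-side cells averaged 17.6 CPM of Cdh19, 101 CPM of Ednrb and 1988 CPM of Apoe, against 16.5, 110 and 3012 CPM in control-side cells.

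At day 7 every satellite glial member was lower on the SNT side by mean CPM, with Apoe split into cells that had much and cells that had almost none. Apoe ranged from 0 to 7689 CPM (median 3189) in control-side and from 0 to 10187 CPM (median 31.2) in SNT-side cells. The means were 3487 ± 2801 and 1954 ± 2712 CPM (SD, n = 14 and 33 cells), a log2 ratio of -0.84, but the ratio of the medians was -6.63. Fabp7 had medians of 103 and 3.51 CPM and a log2 ratio of mean CPM of -0.54. Ednrb had medians of 143 and 2.42 CPM and a log2 ratio of -0.45. Cdh19 had medians of 23.4 and 0 CPM with a log2 ratio of -0.24, and Sox10 had medians of 17.4 and 0 CPM with a log2 ratio of 0.08. The highest SNT-side cells of these genes reached or passed the highest control-side cells, at 413 against 298 CPM for Fabp7 and 167 against 115 CPM for Cdh19.

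S100b behaved differently at day 7. It was at 10 CPM or more in 13 of 14 control-side cells and in all 33 SNT-side cells, with medians of 695 and 709 CPM and a log2 ratio of 0.17. Mbp had medians of 94.7 and 38.1 CPM with a log2 ratio of -0.33. Pmp22 had medians of 663 and 436 CPM with a log2 ratio of -0.70, and it was listed at 0 in 4 SNT-side cells and in no control-side cell. No member (0 of 8) was past 2-fold between the means, against 7.66% of all genes that reached the same level. Of 5 marker genes of red blood cells, 3 reached 10 CPM at day 7, and all 3 were past 2-fold higher on the SNT side by mean. Their summed CPM was 12.8 on average in control-side and 148 in SNT-side cells, but the medians of 9.70 and 5.83 went the other way. A single SNT-side cell from a male held 4670.1 CPM and carried most of the SNT-side mean. In cells from females 1 of these genes reached 10 CPM, and it was past 2-fold lower on the SNT side. No macrophage or endothelial gene averaged 10 CPM on either side. Their part was not tested.

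**Figure D2:**
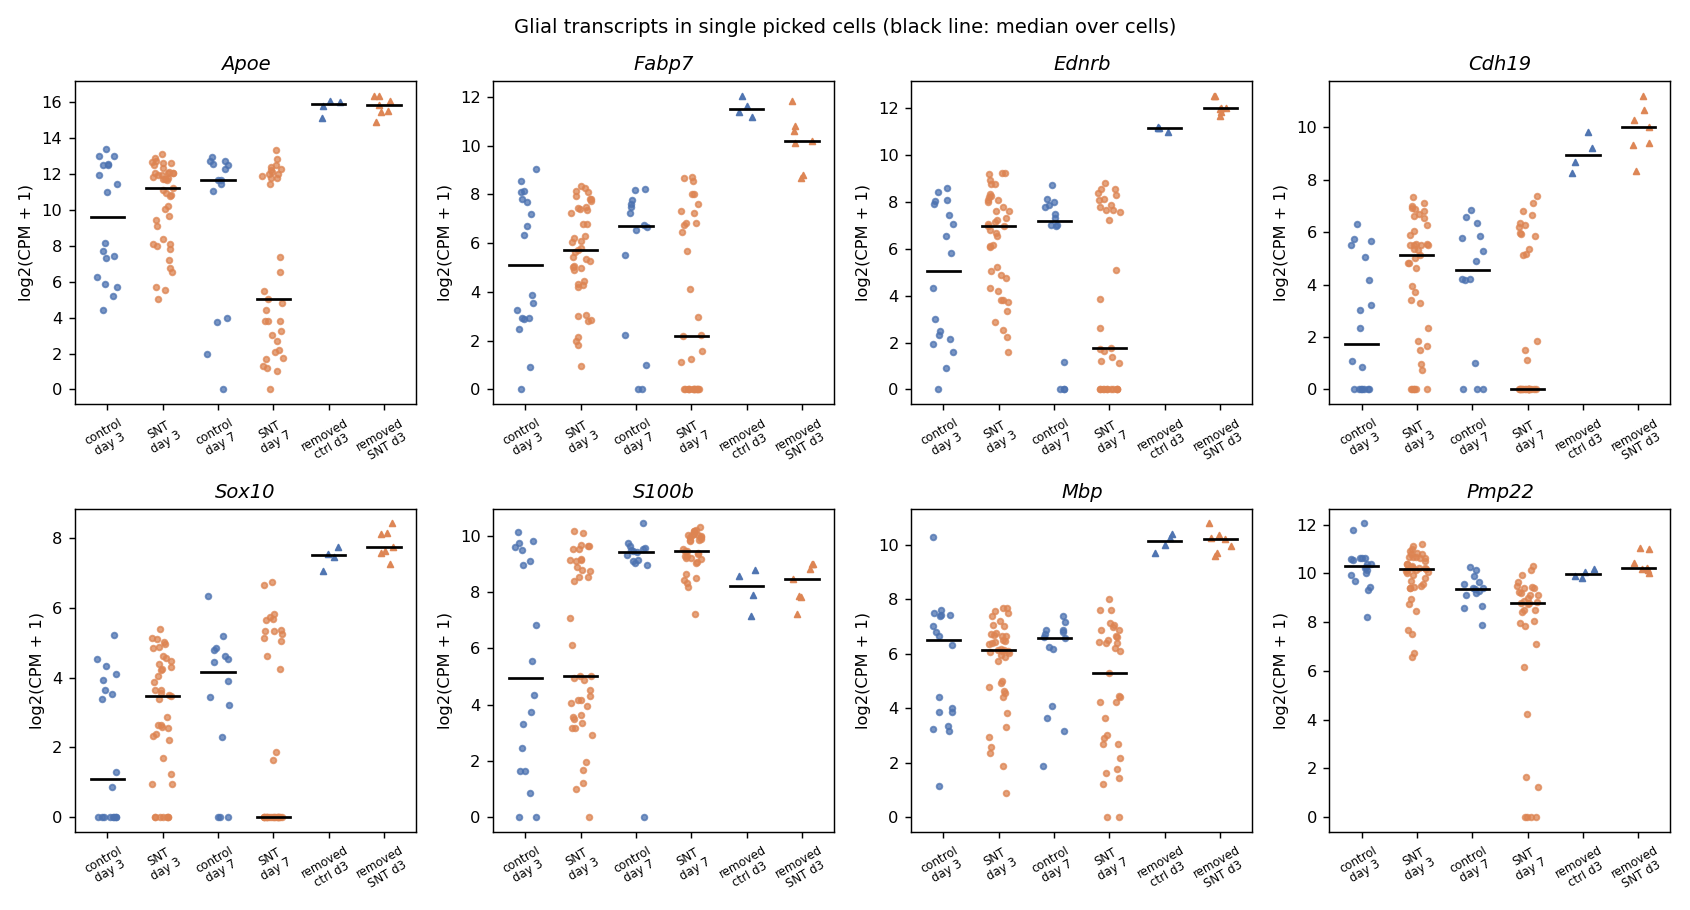
Level of the 8 genes as log2(CPM + 1) in every single cell, by side and day, with the cells removed by the authors as triangles and a black line at the median of each group. Apoe, Fabp7, Ednrb, Cdh19 and Sox10 split the day-7 SNT-side cells into a low and a high set, S100b does not, and the removed cells lie above the kept cells for Apoe.

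The split in Apoe was described with a limit of 500 CPM, which was chosen after its values were seen. At day 7 no control-side cell lay between 14.6 and 2121 CPM and no SNT-side cell between 162 and 2787 CPM. Under 500 CPM were 4 of 14 control-side and 20 of 33 SNT-side cells at day 7, and 9 of 18 control-side and 11 of 41 SNT-side cells at day 3. The SNT side thus had more such cells at day 7 and fewer at day 3. Among the 20 SNT-side cells of day 7 under 500 CPM of Apoe, Fabp7 was listed at 0 in 13, Ednrb in 11, Cdh19 in 17 and Sox10 in 17. Mbp was listed at 0 in 2 of these 20 cells, Pmp22 in 4 and S100b in none, and S100b lay between 149 and 1283 CPM in them. Column totals gave no clear separation, with medians of 595607 counts in the 20 cells and 511261 counts in the other 13.

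The day-7 cells come from male and female mice, and the split was unequal between them. Among SNT-side cells, 14 of 16 from females and 6 of 17 from males were under 500 CPM of Apoe, and among control-side cells 3 of 7 from females and 1 of 7 from males. The log2 ratio of mean Apoe CPM between the sides was -2.27 in cells from females and -0.50 in cells from males. In the 16 SNT-side cells from females 2 cells, at 2787 and 4390 CPM, carried most of the mean of 463 CPM (median 10.7), and without the higher of them the ratio was -3.46 for Apoe and -2.04 for Cdh19, a restriction added after the values were seen. In cells from females 5 members were past 2-fold lower on the SNT side, Fabp7 at -2.27, Ednrb at -2.22, Cdh19 at -1.66, Mbp at -1.42 and Apoe, against 6.96% of all genes, with 6.45% higher, and Sox10 was at -0.99. In cells from males the ratios of these genes were 0.05 for Fabp7, -0.01 for Ednrb, 0.11 for Cdh19 and 0.18 for Mbp, and no member was past 2-fold, against 8.65% of all genes (4.93% higher and 3.72% lower with SNT). S100b stood at -0.04 in cells from females and 0.34 in cells from males, and Pmp22 at -0.76 and -0.63. The number of mice of each sex is not given in the labels, so the sex and the mouse cannot be told apart, and the difference between the sexes was not tested. Of the SNT-side cells with Atf3 above every control-side cell, 7 of 8 from females and 2 of 4 from males were under 500 CPM of Apoe, and of the other SNT-side cells 7 of 8 and 4 of 13.

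**Figure D3:**
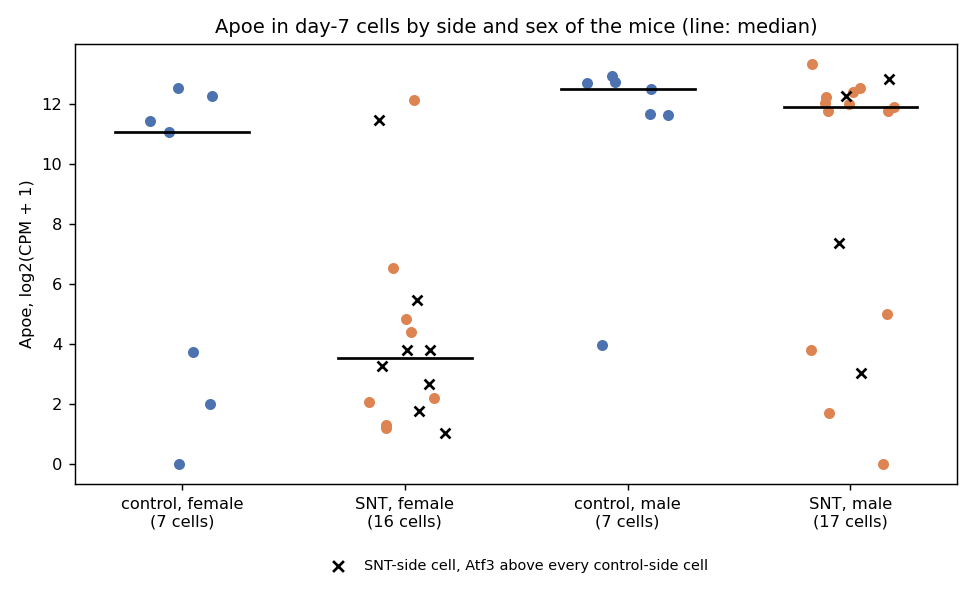
Apoe as log2(CPM + 1) in each day-7 cell by side and sex of the mice, with lines at the medians and crosses for SNT-side cells whose Atf3 exceeds every control-side cell. The low cells are 14 of 16 on the SNT side of females and 6 of 17 on the SNT side of males.

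Neurons were then ordered by Nefh and P2rx3, with Nefh cut at its median over the kept cells of a day (132 CPM at day 3 and 2762 CPM at day 7) and P2rx3 at 10 CPM. At day 3, over both sides together, mean Apoe was highest in the cells with high Nefh and low P2rx3, 14 of which were SNT-side cells, where it ranged from 792 to 8738 CPM (mean 5015 ± 2201, n = 15 cells) and none of the cells was under 500 CPM. In cells high in both it was 3528 ± 3467 CPM (n = 15), and in cells with low Nefh and P2rx3 present it was 1444 ± 1657 CPM (n = 28), with 15 of the 28 under 500 CPM. The ranges of the 3 sets overlap, and within either side the means took another order, as given next. The only cell low in both had 75.7 CPM.

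The day-3 sides differed in opposite directions within these sets of neurons. In cells with low Nefh and P2rx3 present, Apoe averaged 409 CPM among control cells (n = 9, median 159 CPM, 8 of them under 500 CPM, with 1 cell at 2706 CPM carrying most of the mean) and 1934 CPM on the SNT side (n = 19, 7 under 500 CPM). In cells high in both it averaged 6350 CPM on the control side (n = 7, lowest 2048) and 1058 CPM on the SNT side (n = 8, highest 4131). In cells with high Nefh and low P2rx3 the control side had 1 cell at 5999 CPM and the SNT side a mean of 4945 CPM (n = 14). Over all cells below the Nefh median the log2 ratio of SNT to control side was 2.36 for Apoe and 4.44 for Cdh19, and over all cells at or above it -0.84 for Apoe. Without the control cell at 2706 CPM the first was 4.04 for Apoe and 4.38 for Cdh19. These restrictions were added after the values were seen. In the pools P2rx3 was lower and Nefh higher on the SNT side, and the part of such shifts in these differences was not tested.

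At day 7 the order of Apoe was flat, with means of 2612 CPM in cells high in both (n = 9), 2287 CPM in cells with high Nefh alone (n = 15), 2973 CPM in cells with P2rx3 alone (n = 9) and 2052 CPM in cells low in both (n = 14). Every set held cells under 500 CPM, 4, 9, 3 and 8 of them, and the SDs of 2464 to 3289 CPM exceeded the differences. The sum of the 3 satellite glial members in P2rx3 cells with low Nefh, relative to cells with high Nefh alone, had a log2 ratio of -1.82 at day 3 and 0.35 at day 7. The sets of the days do not match, since Nefh was cut at 132 CPM at day 3 and at 2762 CPM at day 7. The highest kept day-3 cell had 1605 CPM of Nefh, below the day-7 cut. A change of the pattern with time can therefore not be read from these ratios.

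S100b followed the Nefh level at both days. At day 3 it averaged 16.2 ± 27.5 CPM in cells with low Nefh and P2rx3 present and 590 ± 332 CPM in cells with high Nefh and low P2rx3. Its Spearman correlation with Nefh across cells was 0.82 and 0.78 on the control and SNT side of day 3 (n = 18 and 41) and 0.85 and 0.63 at day 7 (n = 14 and 33). With P2rx3 it was -0.65 and -0.73 at day 3 and -0.33 and 0.16 at day 7. On the SNT side of day 7 S100b correlated with Atf3 at -0.65. It averaged 511 ± 223 CPM in the 12 cells with Atf3 above every control-side cell and 908 ± 243 CPM in the other 21. Their Nefh medians were 1507 and 3858 CPM, and the parts of Nefh and Atf3 were not told apart. Cells of a group share their preparation and differ in depth, so these correlations are descriptions. Pmp22 ran the other way, with 1588 ± 796 CPM in day-3 cells with low Nefh and P2rx3 present and 687 ± 374 CPM in cells with high Nefh and low P2rx3. Its correlation with Nefh was -0.55 and -0.51 at day 3 and -0.80 and -0.48 at day 7. Apoe correlated with Nefh at 0.69 and 0.32 at day 3 and at 0.14 and -0.09 at day 7, and with the column total at -0.64 and -0.03 at day 3 and at -0.70 and -0.25 at day 7. On the control side of either day, cells with more Apoe thus had lower totals.

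**Figure D4:**
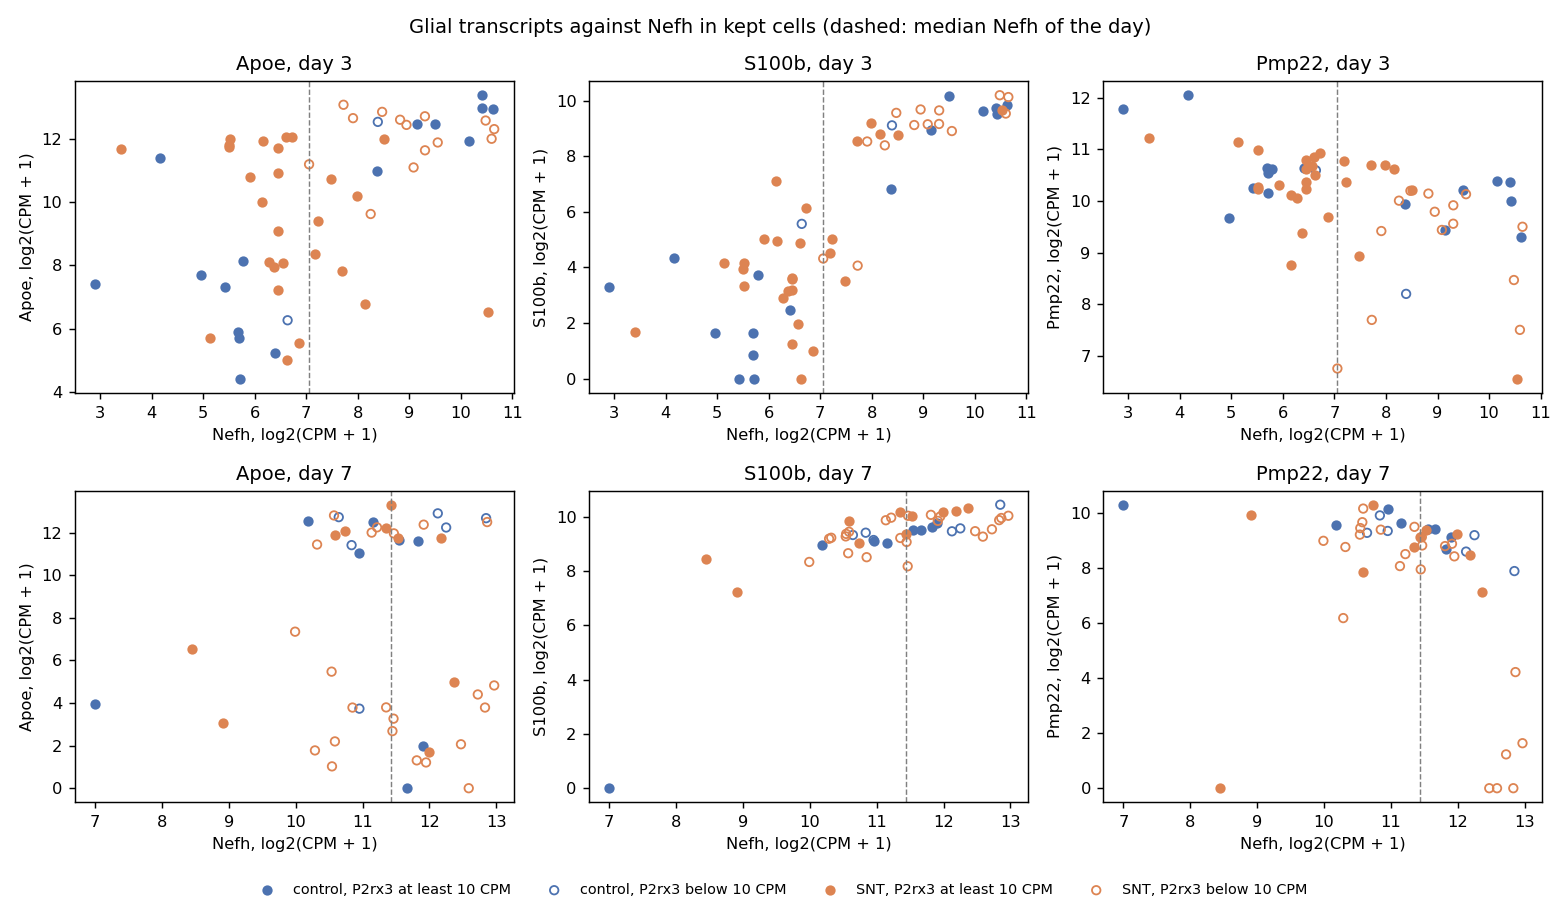
Apoe, S100b and Pmp22 against Nefh in each kept cell, both as log2(CPM + 1), at day 3 (top) and day 7 (bottom), with filled circles for P2rx3 of at least 10 CPM and a dashed line at the Nefh median of 132 and 2762 CPM. S100b increases with Nefh, Pmp22 decreases, and Apoe forms a low and a high set of cells on both sides of the line at day 7.

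The members fell into 3 patterns across cells. Apoe, Fabp7, Ednrb, Cdh19 and Sox10 varied together, with a median Spearman correlation over their 10 pairs of 0.85 and 0.79 on the control and SNT side of day 3 and 0.77 and 0.84 at day 7. Mbp varied with these 5 genes, with medians of 0.79, 0.76, 0.79 and 0.69 in the same groups. S100b did so on the control side of day 3 (0.84), and less elsewhere (0.33, 0.16 and 0.19). Pmp22 was at -0.50, -0.24, -0.36 and 0.08. Mbp therefore went with the satellite glial members in single cells, although the list placed it beside Pmp22.

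The genes most like the mean of log2(CPM + 1) over the 8 members were, at day 3 over 59 cells, led by Serpine2 (0.96) and Gpm6b (0.95), with Mmd2 (0.94) and Gja1 (0.93) also among the first 5. At day 7 they were, over 47 cells, Kcnj10, Itgb8, Lgi4, Sparc and Abca8a (0.91 to 0.89), by Spearman correlation among 10859 and 10700 genes. Gja1 and Kcnj10 were also on the glial lists. Among the members, Pmp22 reached only -0.33 and 0.15 with this mean, and S100b 0.76 and 0.26. All 10 genes were far higher in the removed cells than in kept cells, for example Serpine2 at 1508 against 71.7 CPM.

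**Figure D5:**
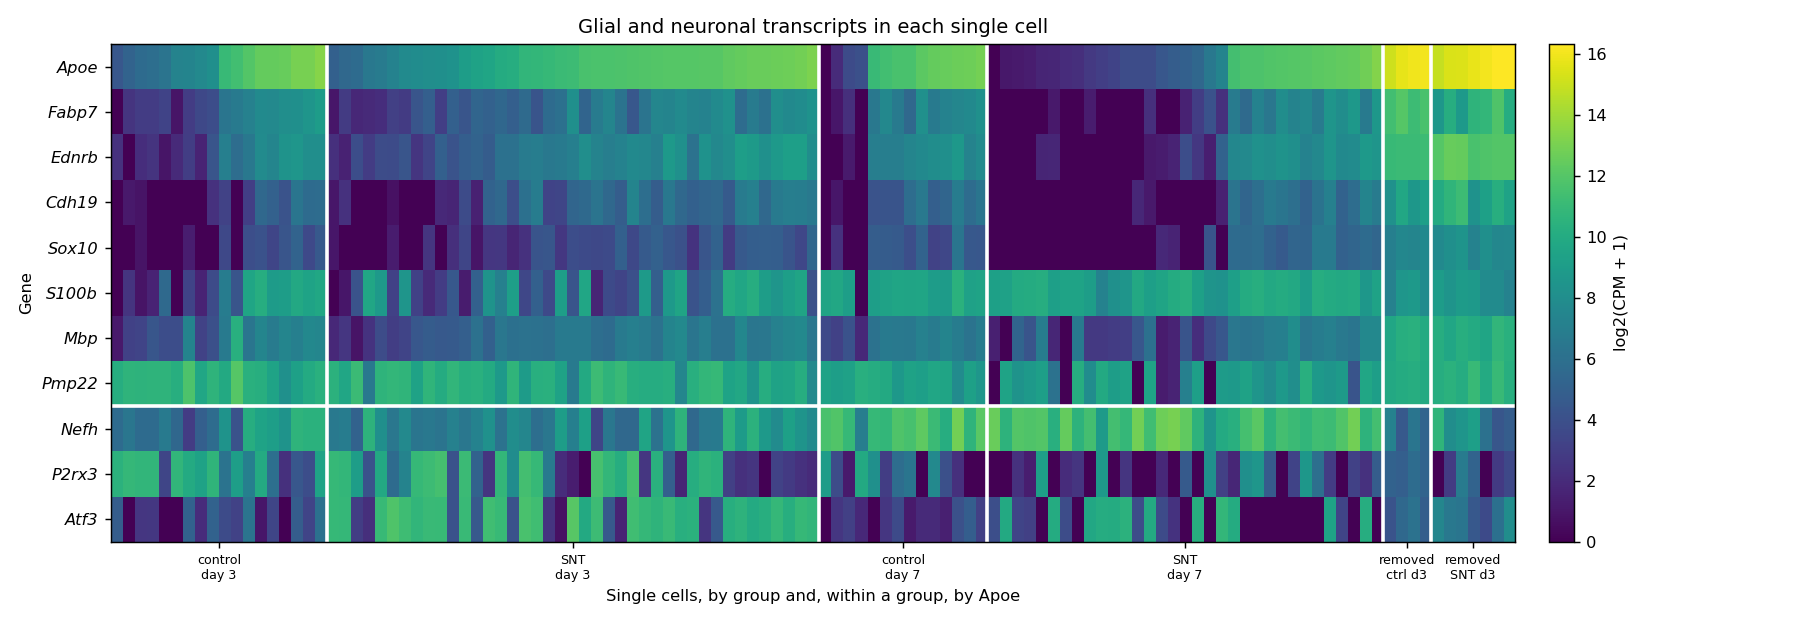
Level of the 8 genes and of Nefh, P2rx3 and Atf3 as log2(CPM + 1) (colour) in each of the 117 cells, grouped by side and day and ordered by Apoe within a group. Fabp7, Ednrb, Cdh19, Sox10 and Mbp follow the order of Apoe, S100b does so only on the control side of day 3, Pmp22 does not, and the 11 removed cells at the right are brightest for Apoe.

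Satellite glial and Schwann members were compared in single cells as in the pools. The sum of Apoe, Fabp7 and Ednrb had a log2 ratio of SNT to control side of -0.09 at day 3 and -0.81 at day 7, and the sum of Mbp and Pmp22 had ratios of -0.39 and -0.66. The difference between the 2 ratios was 0.30 at day 3 and -0.15 at day 7, against -1.34 in the day-3 pools. The gap of the pools was thus not seen over the kept cells of either day, where it could not be tested. The removed day-3 cells are not in these sums, while pooled neurons went through no such removal. Within the day-7 cells it was -1.46 in cells from females and 0.05 in cells from males. Across cells the 2 sums correlated at -0.38 and -0.22 at day 3 and at -0.25 and 0.23 at day 7, whereas the satellite sum and Mbp alone correlated at 0.83, 0.84, 0.78 and 0.69. Pmp22 makes up most of the Schwann sum, so the sum followed Pmp22.

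Other genes of the myelin list were also followed in kept cells. Gldn, which had no count in the control-side pools, averaged 0.127 CPM in control-side and 12.5 CPM in SNT-side cells at day 3, and 2.84 and 13.5 CPM at day 7. Of the 7 Schwann genes that reached 10 CPM on 1 side or the other at each day, it was the 1 past 2-fold higher. Over all genes, 5.82% were past 2-fold higher at day 3 and 7.66% past 2-fold either way at day 7. A single gene of 7 does not set the list apart from these shares. Gldn reached 10 CPM on the SNT side alone, so it could be counted in no direction but higher. Within the day-7 cells from females, 1 of 7 such genes was past 2-fold higher and 3 lower, against 6.45% and 6.96% of all genes. In cells from males it was 0 of 6 either way, against 8.65% of all genes, so Gldn was not counted as past 2-fold there. Drp2, called higher in the pools, had log2 ratios of 0.76 and 0.39 in single cells, short of 2-fold.

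The mix of glial transcripts was followed as summed CPM per 1000 of Apoe over all cells of a group, a measure chosen after the values were seen. Ednrb stood at 36.5 (control) and 61.0 (SNT) at day 3 and at 43.2 and 56.4 at day 7. Leaving out any 1 cell moved the day-3 values within 34.1 to 39.5 and 58.8 to 63.6. Cdh19 stood at 5.48 and 15.9 at day 3 and at 10.7 and 16.1 at day 7. Within the day-7 cells Ednrb stood at 47.8 and 47.7 in cells from females and at 41.02 and 57.5 in cells from males, and Cdh19 at 10.8 and 14.95 and at 10.6 and 16.2. Leaving out 1 cell moved the Cdh19 value of SNT-side cells from females within 7.66 to 25.3. Over all cells Ednrb and Cdh19 were thus higher relative to Apoe on the SNT side at both days, and in cells from females at day 7 Ednrb was level and Cdh19 depended on 1 cell. Fabp7 stood at 41.8 and 34.3 at day 3 and at 34.3 and 41.9 at day 7. In the pools Ednrb stood at 41.2 and 49.2, Cdh19 at 8.13 and 6.55 and Fabp7 at 47.6 and 32.8.

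The 11 removed cells carried satellite glial transcripts at a much higher level than kept cells. Apoe ranged from 34466 to 68112 CPM in the 4 control-side cells and from 30201 to 82496 CPM in the 7 SNT-side cells, while the summed CPM of the 8 neuronal genes had medians of 541 and 1740 CPM. Their neuronal markers were thus low and their satellite glial transcripts high. Mbp averaged 1093 and 1148 CPM, whereas S100b (299 and 349 CPM) and Pmp22 (1017 and 1430 CPM) were within the range of kept day-3 cells. Per 1000 of Apoe, Ednrb stood at 39.9 and 75.1, Cdh19 at 9.92 and 19.3 and Fabp7 at 56.1 and 24.7 on the control and SNT side. Each of the 7 SNT-side cells had more Ednrb than every control-side cell (3195 to 5863 against 2023 to 2308 CPM), and 6 of 7 had less Fabp7 than every control-side cell. Past 2-fold were Cdh19 (log2 ratio 1.03) and Fabp7 (-1.11), 2 of 8 members, against 30.6% of all genes (25.3% higher and 5.29% lower with SNT), with a median log2 ratio of 0.39 over all genes. Column totals ranged from 223967 to 297409 counts in the 4 control-side and from 250113 to 666521 in the 7 SNT-side cells, and their part was not tested.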

How the data were processed

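Somata of DRG neurons were picked by hand and sequenced by Smart-seq2. Per the submitters' processing notes, CASAVA 1.8.2, Bowtie2, RSEM and the mm9 build were used. The authors deposited tables named TPM, but the values are RSEM expected counts, since the totals of the columns run from 223967 to 2003817 and whole numbers make up 60.7% to 93.6% of the nonzero entries of a column. Counts were scaled to CPM by the column total. Side and day were taken from the sample titles. The protocol label of the day-7 cells names 3 and 7 days.

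For the pools, expected counts were rounded to whole numbers, a mean of at least 1 CPM was required, and TMM factors and the quasi-likelihood test of edgeR 4.0.16 (R 4.3.3) were used with Benjamini-Hochberg adjustment over all tested genes. Nothing says that the libraries of a side are separate mice. Single cells gave no test, and log2 ratios are of mean CPM + 1. Python 3.11.15, numpy 2.4.6, scipy 1.17.1, pandas 2.3.3 and matplotlib 3.10.9 were used. Scripts were tested on simulated data.

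Named genes are the 8 members, the genes of the cell type lists, Nefh, P2rx3 and Atf3, and the 5 genes of each day most correlated with the mean of the members (at least 5 CPM on average and above 0 in at least 25% of the cells). The members and lists were chosen with earlier results of these data known. Alternatives were DESeq2 1.42.0, limma 3.58.1, other scalings and filters, a replicate block, libraries left out, other pseudocounts, limits of detection and medians. The 3 pools of a side share numbers with the other side, but their deviations from the side means did not correlate by number (r = 0.06, -0.02 and -0.01). Some genes of these lists are not reported here.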

Additional observations from a re-analysis of the deposited data

Results flagged for a closer look

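The cells that the authors removed as outliers enter no comparison between kept cells, and in them some of the glial transcripts lay above every kept control-side cell of day 3. In the 4 removed control-side cells the mean was 55422 CPM for Apoe, 3108 CPM for Fabp7, 2212 CPM for Ednrb and 550 CPM for Cdh19. In the 7 removed SNT-side cells it was 58199 CPM for Apoe, 4368 CPM for Ednrb and 1124 CPM for Cdh19. Each cell of the respective set exceeded the highest kept control-side cell, which was at 10781 CPM for Apoe, 528 CPM for Fabp7, 382 CPM for Ednrb and 79.0 CPM for Cdh19. Fabp7 in the removed SNT-side cells started at 403 CPM and overlapped with the kept cells.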

How the results depend on the processing

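In the pools, Apoe, Fabp7 and Cdh19 kept their direction and their call under each alternative run. The log2 difference of Pmp22 turned to 0.01 without SNT library 1 and to 0.0858 without control library 3 (range -0.0752 to 0.0858 with 1 library left out), Ednrb moved just inside the size limit without SNT library 1, SNT library 3 or control library 3, and Sox10 was called with library size alone, as given above. The number of called genes was 2154 and ranged from 1884 to 2148 with 1 library left out, and it was 1761 with DESeq2 and 1649 with a filter of 10 CPM. With the replicate block it was 2008. Since only number 1 of the 3 correlated best with its own number, the pools were not taken as paired, and no block was used. In single cells, the share of day-7 SNT-side cells with Apoe was 66.7% at 10 CPM, 97.0% at 1 CPM and 45.5% at 50 CPM. Medians in place of means moved the day-7 ratios of Apoe, Fabp7, Ednrb, Cdh19 and Sox10 to between -6.63 and -4.20, and the day-3 ratios to 1.02 for Apoe, 0.14 for Fabp7, 1.69 for Ednrb, 3.287 for Cdh19 and 2.38 for Sox10, so that Apoe and Fabp7 turned. In day-3 cells below the Nefh median, without the control-side cell highest in Apoe, the ratio of the summed 8 genes was 1.04, against -0.17 over all cells. The cause of these shifts was not tested. The glial genes with 0 counts in a cell at a total of 261352 counts could still be present at up to 11.5 CPM, so cells near 0 are not shown to lack them.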
